A study of Homo sapiens with 6 samples.

Results

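The SLC25 genes encode the mitochondrial carriers, a family of nuclear-encoded membrane proteins that move metabolites, nucleotides, cofactors and ions across the inner mitochondrial membrane. Members were taken by gene symbol, as every row of the count table named SLC25A followed by digits, apart from 1 carrier that the selection rule leaves out. This gave 47 genes of the 26475 in the table. RNA sequencing had been done on HepG2 cells, an established human liver cancer line, in 2 groups of 3 libraries each. Cells of the TAF2 group expressed TAF2, which belongs to the general transcription factor TFIID, and cells of the eGFP group expressed enhanced green fluorescent protein, a reporter. The labels give no vector or promoter, and do not state whether the cells were 1 clone, a pool or transiently transfected. Whether the replicates are separate cultures is not stated either, so the p-values reflect the variation among these 6 libraries and that variation could be technical.

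Most carriers share a common fold around a central substrate binding site, and many exchange one substrate for another. ADP/ATP and phosphate carriers feed ATP synthase, aspartate/glutamate and oxoglutarate carriers run the malate-aspartate shuttle, and the citrate carrier exports the carbon used for fat and cholesterol synthesis. In liver, carriers of ornithine, aspartate and glutamate also connect the matrix and cytosolic steps of the urea cycle. Several substrates have more than 1 carrier, encoded by paralogous genes with different tissue preferences.

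Library totals ran from 22276308 to 28024004 estimated counts. Levels are given as CPM, a gene's counts scaled to a common library size, and fold changes as TAF2 over eGFP. TAF2 itself (chromosome 8, 119730774 to 119832841, GRCh38.p14) stood at 50.04, 48.3 and 47.3 CPM in the TAF2 libraries, against 35.8, 40.4 and 37.5 CPM in the eGFP libraries, a 1.28-fold difference (edgeR adjusted p = 1.44e-08). The hepatocyte markers ALB, APOA1, APOB, AFP, TTR, TF, SERPINA1, FGB, HNF4A and KRT18 were all expressed, with a summed level of 39645 to 41460 CPM in TAF2 and 49022 to 50490 CPM in eGFP libraries. Among them FGB (log2 fold change 0.64) and KRT18 (0.24) were called higher with TAF2 and the other 8 lower. PTPRC, CD3E, DCN, LUM, KDR and HBB, markers of blood, stromal and endothelial cells, had no count in any library. Other listed markers did have counts: the 5 fibroblast markers summed to 20.3 to 21.8 CPM in TAF2 and 8.14 to 9.22 CPM in eGFP libraries, mostly PDGFRB, and the 5 leukocyte markers to 2269 to 2321 CPM in TAF2 and 1938 to 2055 CPM in eGFP libraries, mostly LYZ. The 4 bile duct markers summed to 577 to 586 CPM in TAF2 and 547 to 558 CPM in eGFP libraries, the 5 erythroid markers to 3.28 to 4.35 CPM in TAF2 and 3.42 to 4.05 CPM in eGFP libraries, and the 4 endothelial markers to at most 0.714 CPM in TAF2 and 1.08 CPM in eGFP libraries. Members of a list could differ in direction: KRT19 was called higher with EPCAM and SOX9 lower, and LYZ higher with CD68 lower. The part of these differences in the carriers' values was not tested. In these bulk RNA samples, fewer cells that express a gene and less of its RNA per cell cannot be told apart.

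As a family the carriers changed about as often as other genes. Of 39 carriers with enough counts to test, 17 passed an adjusted p of 0.05, 6 of them higher and 11 lower with TAF2. Among all 12902 tested genes 43.0% passed, 20.6% higher and 22.4% lower, so the members' share of 43.6% is close to that background. Their median log2 fold change was 0.01, against -0.00 over all tested genes. For 18 carriers, 8 higher and 10 lower, the libraries of one group all lay on the same side of those of the other, as they did for 50.6% of all tested genes. DESeq2 called 14 carriers, 5 higher and 9 lower, and 33.4% of all tested genes.

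Most of these changes were small. Of the 17 called carriers, 11 changed by less than 1.25-fold. The other 6, of 39 tested, changed by more, a share close to the 14.7% of all tested genes that were called at 1.25-fold or more. The 6 were SLC25A6 and SLC25A12, which were higher, and SLC25A33, SLC25A22, SLC25A47 and SLC25A45, which were lower. When the change had to exceed 1.5-fold (edgeR glmTreat), 0 carriers were called, with 1 at an unadjusted p under 0.05, while 2.89% of all tested genes were called. No second tool was run for that test.

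**Figure D1:**
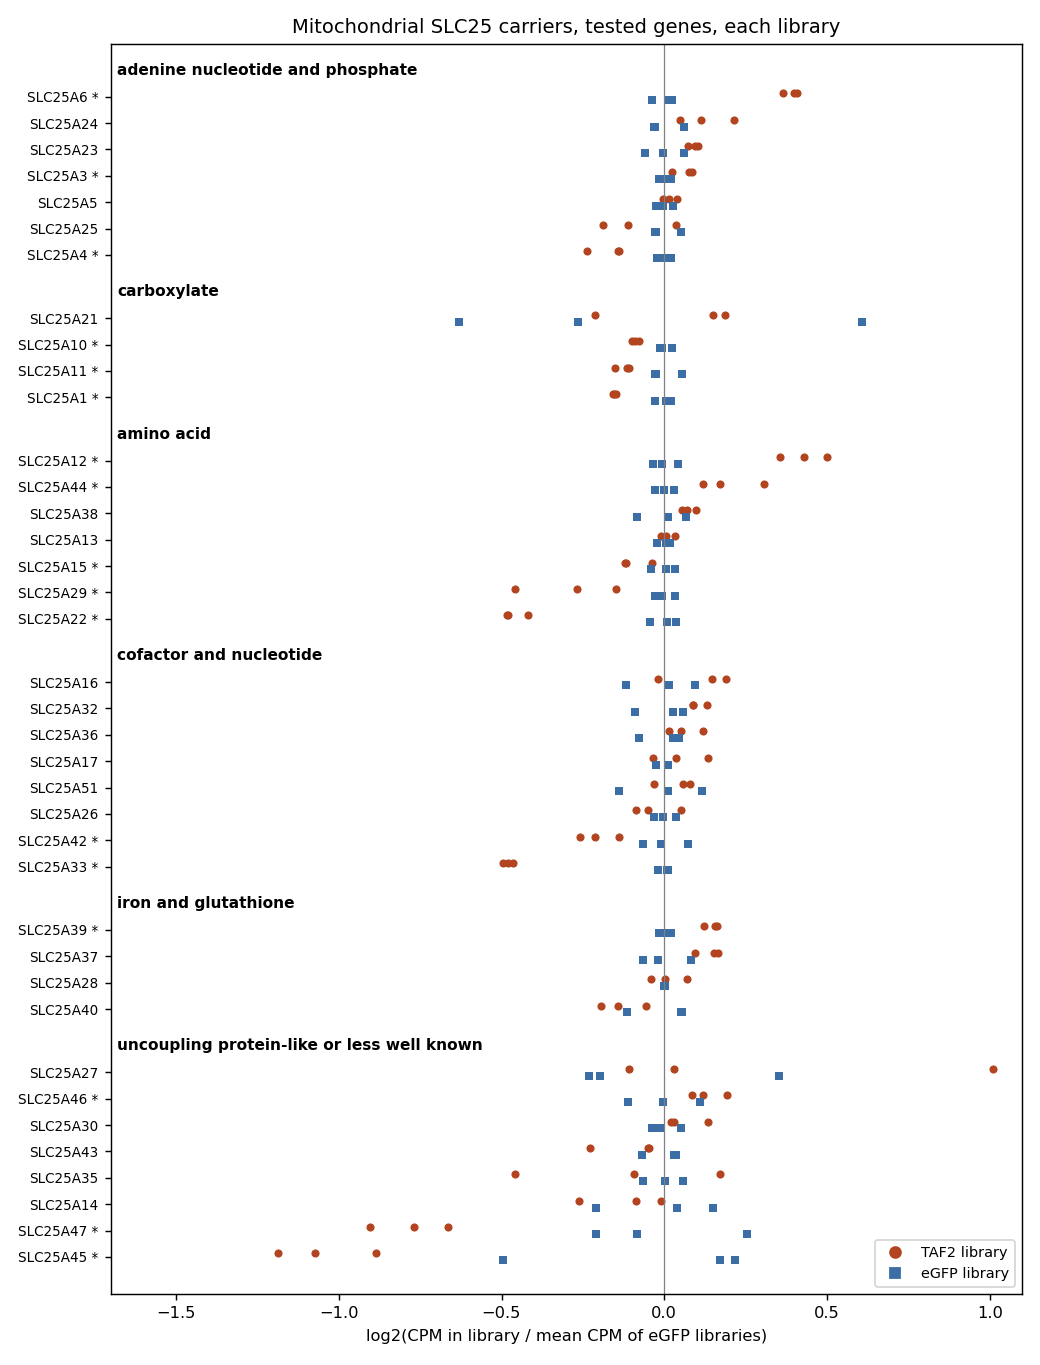
Each row is a tested carrier, grouped by substrate, with 1 tested carrier not shown; the horizontal axis is the log2 ratio of its CPM in a library to the mean CPM of the 3 eGFP libraries, with TAF2 libraries as circles above eGFP libraries as squares, and a star marks an adjusted p under 0.05. SLC25A6 and SLC25A12 lie furthest to the right among the called carriers, SLC25A45 and SLC25A47 furthest to the left, and most other carriers lie near 0.

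TFIID, which contains TAF2, binds core promoters, so the promoter windows of the 4 carriers of at least 10 CPM that were called with a change of 1.25-fold or more are printed, 250 bases before to 50 bases after the start of the gene, from RefSeq on GRCh38.p14 and read 5′ to 3′ on the gene's strand. They are SLC25A6 (chrX:1392064-1392363, minus strand), SLC25A12 (chr2:171894195-171894494, minus strand), SLC25A33 (chr1:9539215-9539514, plus strand) and SLC25A22 (chr11:798232-798531, minus strand, the first listed of its 4 windows). Capitals mark the GC box GGGCGG and the CCAAT box CCAAT on either strand.
SLC25A6: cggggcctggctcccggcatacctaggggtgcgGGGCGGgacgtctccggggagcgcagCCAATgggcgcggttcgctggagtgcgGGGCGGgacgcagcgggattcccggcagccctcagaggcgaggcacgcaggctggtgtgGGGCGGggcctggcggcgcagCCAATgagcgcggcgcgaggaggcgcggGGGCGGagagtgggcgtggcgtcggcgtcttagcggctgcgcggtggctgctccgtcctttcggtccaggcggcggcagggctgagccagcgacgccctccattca
SLC25A12: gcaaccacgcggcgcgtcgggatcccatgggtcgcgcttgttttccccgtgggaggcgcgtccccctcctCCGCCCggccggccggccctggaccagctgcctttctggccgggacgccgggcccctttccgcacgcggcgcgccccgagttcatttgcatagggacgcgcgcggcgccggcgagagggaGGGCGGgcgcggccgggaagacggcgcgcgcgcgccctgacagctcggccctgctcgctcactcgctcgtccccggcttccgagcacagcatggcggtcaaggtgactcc
SLC25A33: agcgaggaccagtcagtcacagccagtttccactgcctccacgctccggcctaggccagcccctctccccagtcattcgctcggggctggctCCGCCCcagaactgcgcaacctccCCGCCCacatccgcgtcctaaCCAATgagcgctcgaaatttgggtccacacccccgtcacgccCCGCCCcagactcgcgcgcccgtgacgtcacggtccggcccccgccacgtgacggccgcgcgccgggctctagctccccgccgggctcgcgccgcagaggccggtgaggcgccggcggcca
SLC25A22: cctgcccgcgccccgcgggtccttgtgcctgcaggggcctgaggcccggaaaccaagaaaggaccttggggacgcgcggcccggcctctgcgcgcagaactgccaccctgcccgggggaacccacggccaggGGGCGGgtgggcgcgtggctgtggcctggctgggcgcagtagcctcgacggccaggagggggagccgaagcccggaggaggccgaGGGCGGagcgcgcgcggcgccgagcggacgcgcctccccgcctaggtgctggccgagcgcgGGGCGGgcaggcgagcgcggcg

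These windows were rich in G and C, from 72.7% to 79.0%. SLC25A6 had 4 GC boxes and 2 CCAAT boxes, SLC25A12 had 2 GC boxes, SLC25A33 had 3 GC boxes and 1 CCAAT box, and SLC25A22 had 3 GC boxes. No motif overlapped another in the printed windows, and none of the 4 held the TATA box TATAAA, the ETS site CCGGAAG or the site of the nuclear respiratory factor NRF1, read as GCGCA, any base and GCGC.

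Of the 47 carriers, 39 had a window in the table, 49 windows in all, and motifs were counted on both strands. These 39 are not the tested carriers: they include SLC25A18, SLC25A31 and SLC25A52, which had too few counts to test. The carriers' windows are thus not fully matched to those of tested genes. GC boxes were in 65.3% of the carriers' windows and in 65.7% of the windows of tested genes, and in 45.0% of all windows. CCAAT boxes were in 44.9%, against 35.2% of tested and 34.6% of all windows. The ETS site was in 20.4%, against 17.4% and 10.3%. For the NRF1 site the figures were 10.2%, against 10.2% and 5.80%, and for the TATA box 8.16%, against 6.12% and 11.5%. Such a match is one of letters alone.

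Of the 7 tested adenine nucleotide and phosphate carriers 2 rose and 1 fell, 42.9% in all, close to the 43.0% of all tested genes. SLC25A6 rose the most. The ADP/ATP carriers export the ATP made in the matrix in exchange for ADP. SLC25A6, the ubiquitous isoform, held 639, 643 and 624 CPM in the TAF2 libraries, against 493, 473 and 489 CPM in the eGFP libraries. All 3 TAF2 libraries were far above the eGFP libraries, and each group was tight. The means were 635 ± 10.1 CPM with TAF2 and 485 ± 10.98 CPM with eGFP (SD, n = 3 each), a 1.31-fold difference (log2 fold change 0.39, SE 0.022, edgeR adjusted p = 1.08e-18).

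SLC25A5, the isoform known from proliferating cells, held 379, 391 and 385 CPM in TAF2, against 388, 374 and 379.9 CPM in eGFP libraries. The groups overlapped, and the difference was not called (log2 fold change 0.02, SE 0.023, edgeR adjusted p = 0.602). SLC25A4, the heart and skeletal muscle isoform, was lower, at 35.2, 37.6 and 37.7 CPM with TAF2 and 40.8, 41.6 and 42.1 CPM with eGFP. Every TAF2 library was below every eGFP library (0.889-fold, edgeR adjusted p = 0.00215). SLC25A31, the testis isoform, had no count in any library.

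SLC25A6 took a larger share of the ADP/ATP carrier counts in the TAF2 libraries, with no overlap between groups. SLC25A6 made up 60.7%, 60.0% and 59.6% of the summed counts of SLC25A4, SLC25A5 and SLC25A6 in the TAF2 libraries, against 53.5%, 53.2% and 53.7% in the eGFP libraries. The difference of 6.63 percentage points had an exact two-sided permutation p of 0.1, the smallest that 3 libraries against 3 allow (adjusted p = 0.14 over the 7 paralog groups compared). Per kilobase of coding sequence, 894 bases in each of the 3 genes, the levels were 711, 431 and 41.2 CPM for SLC25A6, SLC25A5 and SLC25A4 with TAF2. The corresponding eGFP levels were 543, 426 and 46.4 CPM per kilobase. Per kilobase of annotated transcript SLC25A6 and SLC25A5 stood at 308 ± 4.88 and 302 ± 4.61 CPM with TAF2 (SD, n = 3 each). With eGFP they stood at 235 ± 5.32 and 299 ± 5.56 CPM. By coding length SLC25A6 was thus the higher in both groups. By transcript length the genes were nearly level with TAF2, and SLC25A5 was the higher with eGFP.

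The family's total was higher with TAF2, and not without SLC25A6. All 47 carriers summed to 2899 ± 22.4 CPM with TAF2 and 2771 ± 16.95 CPM with eGFP (SD, n = 3 each). Without SLC25A6 the sums were 2263 ± 20.4 CPM with TAF2 and 2286 ± 12.4 CPM with eGFP, 22.4 CPM lower with TAF2. Here the libraries overlapped, from 2240.7 to 2280.5 CPM with TAF2 and from 2272.4 to 2296.9 CPM with eGFP. The sums were not tested.

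The phosphate carrier SLC25A3, which brings in the phosphate for ATP synthesis, was the second highest carrier by CPM. It held 448, 464 and 468 CPM in TAF2 and 447, 440.0 and 436 CPM in eGFP libraries, a 1.04-fold difference (edgeR adjusted p = 0.0242). Although called, its lowest TAF2 library lay just above its highest eGFP library, and it was not called without eGFP replicate 3 (adjusted p = 0.110), TAF2 replicate 2 (0.103) or TAF2 replicate 3 (0.126). The calcium-regulated ATP-Mg/phosphate carriers SLC25A23, SLC25A24 and SLC25A25, which set the size of the matrix adenine nucleotide pool, had log2 fold changes of 0.09, 0.13 and -0.08 and were not called (edgeR adjusted p = 0.0564 to 0.235). SLC25A23 was nonetheless higher in all 3 TAF2 libraries than in any eGFP library.

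Of the 4 carriers of citric acid cycle intermediates 3 fell, each by a small amount, where 22.4% of all tested genes fell; the class was not tested against that background. The citrate carrier SLC25A1 held 134, 134 and 134 CPM in the TAF2 libraries, against 151, 146 and 150 CPM in the eGFP libraries. This 0.899-fold difference exceeded the spread between libraries (log2 fold change -0.15, edgeR adjusted p = 7.69e-06, SE 0.027). The dicarboxylate carrier SLC25A10, which exchanges malate or succinate for phosphate, stood at 143 ± 1.01 CPM with TAF2 and 152 ± 2.07 CPM with eGFP (SD, n = 3 each; 0.940-fold, edgeR adjusted p = 0.00527). For the oxoglutarate carrier SLC25A11 the means were 42.6 ± 0.700 and 46.5 ± 1.54 CPM in TAF2 and eGFP libraries (0.918-fold, edgeR adjusted p = 0.0184).

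The groups did not overlap for any of SLC25A1, SLC25A10 and SLC25A11. SLC25A11 was no longer called without eGFP replicate 2 (adjusted p = 0.124) or TAF2 replicate 1 (0.0815), nor by DESeq2 (0.0881). The oxodicarboxylate carrier SLC25A21 had 10 to 21 counts per library and was not called.

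Amino acid carriers moved in both directions. The aspartate/glutamate carriers are the committed step of the malate-aspartate shuttle, which takes reducing equivalents from cytosolic NADH into the matrix. SLC25A12 (aralar), the brain and muscle isoform, held 12.6, 13.9 and 13.3 CPM in TAF2, against 10.1, 9.80 and 9.62 CPM in eGFP libraries. All TAF2 libraries were above all eGFP libraries, with means of 13.3 ± 0.662 and 9.85 ± 0.263 CPM in TAF2 and eGFP (SD, n = 3 each). At 1.35-fold this was the largest rise among called carriers (log2 fold change 0.43, edgeR adjusted p = 3.00e-05, SE 0.081).

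SLC25A13 (citrin), the liver isoform, held 126, 129 and 125 CPM with TAF2 and 126, 127 and 124 CPM with eGFP, and was not called (log2 fold change 0.01, SE 0.028, edgeR adjusted p = 0.801). Citrin made up 90.9%, 90.2% and 90.4% of the summed counts of both genes in TAF2 libraries, against 92.6%, 92.9% and 92.8% in eGFP libraries (exact two-sided permutation p = 0.1). The summed level of the pair was 140.0 ± 2.38 CPM with TAF2 and 136 ± 1.90 CPM with eGFP.

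SLC25A22, the main mitochondrial glutamate carrier, fell to 45.6, 43.6 and 43.7 CPM in the TAF2 libraries, against 62.5, 61.3 and 59.2 CPM in the eGFP libraries. The groups lay far apart relative to their spread (0.726-fold, log2 fold change -0.46, SE 0.041, edgeR adjusted p = 1.04e-12). Its paralog SLC25A18 had 10, 13 and 10 counts in TAF2 and 10, 5 and 4 counts in eGFP libraries, too few to test.

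Among the other amino acid carriers, SLC25A44, which imports branched-chain amino acids, was higher at 27.1, 30.9 and 28.1 CPM with TAF2 and 25.0, 25.5 and 24.5 CPM with eGFP (1.15-fold, edgeR adjusted p = 0.00279). SLC25A29, a carrier of basic amino acids, was lower at 8.996, 9.77 and 7.89 CPM with TAF2 and 11.1, 10.8 and 10.6 CPM with eGFP (0.817-fold, edgeR adjusted p = 0.00850). For both genes the groups did not overlap, but SLC25A29 was not called without TAF2 replicate 3 (log2 fold change -0.21, adjusted p = 0.0933), against a log2 fold change of -0.29 over all libraries and -0.36 without TAF2 replicate 2.

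The ornithine carrier SLC25A15, which links the mitochondrial and cytosolic steps of the urea cycle, was called lower by a small margin (0.938-fold, edgeR adjusted p = 0.0410). Its groups overlapped, and leaving out eGFP replicate 1 (adjusted p = 0.188), eGFP replicate 2 (0.0974), TAF2 replicate 1 (0.153) or TAF2 replicate 3 (0.153) ended the call. DESeq2 did not call it either (adjusted p = 0.152). Of 14 alternatives to the reported fit, leaving aside the test against 1.5-fold, 10 ended the call. SLC25A38, which supplies glycine for haem synthesis, was not called (log2 fold change 0.07, edgeR adjusted p = 0.239). The second ornithine carrier gene, SLC25A2, had no count in any library.

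Of the carriers of cofactors and nucleotides, 2 of 9 tested genes changed, both lower. That is 22.2%, where 43.0% of all tested genes were called and 22.4% were lower. SLC25A33, which carries pyrimidine nucleotides into mitochondria for the synthesis of mitochondrial DNA and RNA, held 71.5, 73.1 and 72.2 CPM in TAF2 libraries, against 99.5, 102 and 101 CPM in eGFP libraries. No other called carrier above 10 CPM had so large a fall (SD 0.805 CPM in TAF2 and 1.15 CPM in eGFP; 0.717-fold, log2 fold change -0.48, SE 0.032, edgeR adjusted p = 3.38e-16).

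Its paralog SLC25A36 held 75.4, 70.2 and 72.0 CPM with TAF2 and 65.9, 71.7 and 70.9 CPM with eGFP, overlapping groups that were not called apart (log2 fold change 0.06, edgeR adjusted p = 0.180). SLC25A33 made up 48.7%, 51.0% and 50.1% of the counts of this pair in TAF2 libraries, against 60.1%, 58.6% and 58.9% in eGFP libraries (exact two-sided permutation p = 0.1). Both genes together summed to 145 ± 1.86 CPM with TAF2 and 170.3 ± 4.29 CPM with eGFP (SD, n = 3 each).

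SLC25A42, a carrier of coenzyme A, was lower at 22.1, 20.3 and 21.0 CPM with TAF2 and 23.2, 25.6 and 24.1 CPM with eGFP (0.870-fold, edgeR adjusted p = 0.00504). The other 7 tested genes of this class were not called. Among them were SLC25A16 (log2 fold change 0.11), the peroxisomal cofactor carrier SLC25A17 (0.05), the S-adenosylmethionine carrier SLC25A26 (-0.03), the folate carrier SLC25A32 (0.10), SLC25A36 (0.06) and the NAD carrier SLC25A51 (0.03). SLC25A32 was higher in all 3 TAF2 libraries than in any eGFP library. SLC25A52, a close copy of SLC25A51, had no count.

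SLC25A39, which brings glutathione into mitochondria, was among the 4 highest carriers and was higher with TAF2, at 204, 199 and 205 CPM, against 186, 181 and 183 CPM in eGFP libraries. The groups did not overlap (1.11-fold, log2 fold change 0.15, SE 0.025, edgeR adjusted p = 4.41e-06). SLC25A40, its paralog, held 16.3, 15.3 and 14.8 CPM with TAF2 and 17.5, 15.7 and 17.6 CPM with eGFP and was not called (log2 fold change -0.13, edgeR adjusted p = 0.119). The share of SLC25A39 in their summed counts was 92.9% ± 0.331 with TAF2 and 91.5% ± 0.442 with eGFP (SD, n = 3 each; exact two-sided permutation p = 0.1). The iron carriers SLC25A28 and SLC25A37 (mitoferrins) had log2 fold changes of 0.01 and 0.14 and were not called, although SLC25A37 was higher in all 3 TAF2 libraries than in any eGFP library.

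**Figure D2:**
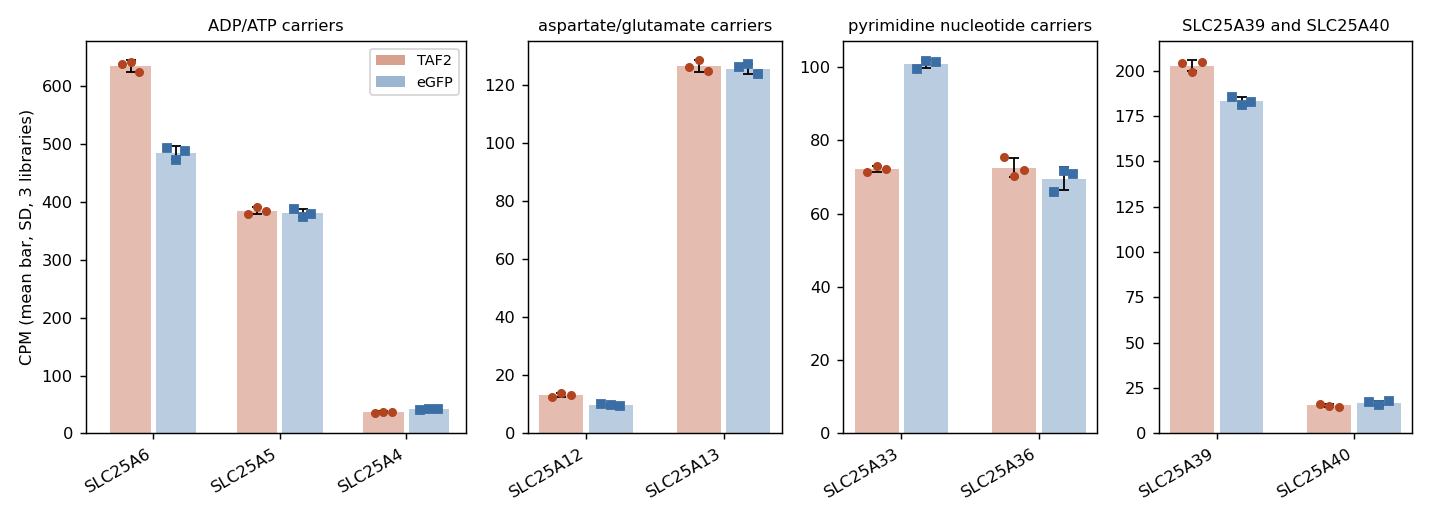
Bars give the mean CPM of 3 libraries, lines the SD and points the libraries, with TAF2 left of eGFP for each gene; panels have their own CPM axes, which start at 0. SLC25A6, SLC25A12 and SLC25A39 were called higher and SLC25A4 and SLC25A33 lower, while SLC25A5, SLC25A13, SLC25A36 and SLC25A40 were not called.

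Of the 8 tested uncoupling protein-like or less well known carriers, 3 changed, 37.5% beside 43.0% of all tested genes. SLC25A45 and SLC25A47 had the largest fold changes of all called carriers, at low counts. For SLC25A45 the libraries held 22, 28 and 27 counts with TAF2 and 64, 32 and 57 counts with eGFP (0.482-fold, log2 fold change -1.05, edgeR adjusted p = 0.000230, SE 0.23). The eGFP libraries spread widely, with replicate 2 closest to the TAF2 libraries. FRMD8, whose span overlaps SLC25A45, was also lower (log2 fold change -0.27). At 26.1 CPM with TAF2 and 31.6 CPM with eGFP it stood well above SLC25A45, and its part in the counts of SLC25A45 was not tested.

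SLC25A47, a liver-enriched carrier, had 26, 25 and 25 counts with TAF2 and 54, 35 and 36 counts with eGFP (0.581-fold, log2 fold change -0.78, SE 0.24, edgeR adjusted p = 0.00614). Here eGFP replicate 1 was the highest library, and without it the gene was not called (log2 fold change -0.62, adjusted p = 0.0651). SLC25A46, an outer membrane member that acts in mitochondrial dynamics, held 33.8, 35.6 and 33.0 CPM with TAF2 and 28.8, 33.6 and 31.1 CPM with eGFP. It was called higher with overlapping groups (log2 fold change 0.14, edgeR adjusted p = 0.0336). It was not called without eGFP replicate 1 (adjusted p = 0.259), eGFP replicate 3 (0.0792) or TAF2 replicate 2 (0.156), nor by DESeq2 (0.113).

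The uncoupling protein-like genes SLC25A14 (log2 fold change -0.12), SLC25A27 (0.40, SE 0.39) and SLC25A30 (0.07) were not called, nor were SLC25A35 (-0.11) and SLC25A43 (-0.10). The value of SLC25A27 rested on TAF2 replicate 1, with 21 counts, and was -0.02 without it. SLC25A27 and SLC25A21 were the tested carriers with a mean under 1 CPM. The 8 carriers with too few counts to test were SLC25A2, SLC25A31 and SLC25A52, with no count, and SLC25A18, SLC25A34, SLC25A41, SLC25A48 and SLC25A53, with at most 13, 3, 13, 1 and 6 counts in a library.

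Some carriers share sequence with other genes. Of the 50-base stretches in their GENCODE release 29 transcripts, SLC25A10 shares 56.9% with another gene, SLC25A32 shares 86.4%, SLC25A33 shares 20.7% and SLC25A51 shares 18.96%. The annotation used for the counts may differ from that release and need not hold the same sharing genes. Any effect of this on their counts was not tested, and the deposited values of these 4 carriers were all whole numbers. The ADP/ATP carriers share little, 0.944% for SLC25A6 and 4.57% for SLC25A5. SLC25A29 overlaps YY1, which held more counts and was not called (log2 fold change 0.02).

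Across the paralog groups, the share of the gene named first was compared in 7 groups, and in 5 of them the libraries did not overlap. By CPM, the libraries did not overlap for 50.6% of all single genes tested, so separation was common in these libraries. No such background was taken for shares, which rest on the same counts as the calls of single genes. SLC25A22 was the fifth, with 99.1% of the counts of SLC25A18 and SLC25A22 in TAF2 and 99.6% in eGFP libraries. In the other 2, SLC25A24 held 23.4% ± 0.644 with TAF2 and 22.3% ± 1.19 with eGFP of the ATP-Mg/phosphate carrier counts, and SLC25A37 held 55.7% ± 0.703 with TAF2 and 53.5% ± 1.33 with eGFP of the mitoferrin counts (SD, n = 3 each; exact two-sided permutation p = 0.3 and 0.2). With 3 libraries against 3 no share could reach 0.05, and the adjusted p was 0.14 for each of the 5 groups without overlap.

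**Figure D3:**
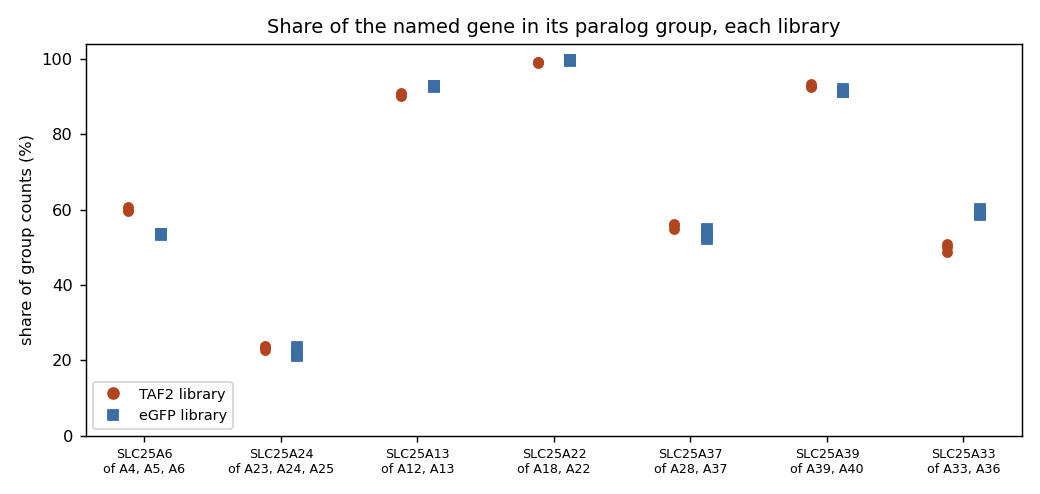
The vertical axis gives, for each library, the percentage of a paralog group's summed counts held by the gene named first, with TAF2 libraries as circles left of eGFP libraries as squares. The largest gaps are those of SLC25A33, between 48.7% and 51.0% with TAF2 and between 58.6% and 60.1% with eGFP, and of SLC25A6.

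Some changed carriers lie in chromosome regions where most genes moved together. For each carrier, the median log2 fold change of other tested genes of at least 5 CPM in its 10 Mb bin was taken as its neighbourhood value, without a test. It was at least 0.15 from 0 for 5 tested carriers, each of which was called in the same direction as its neighbours. With whole chromosomes in place of bins, 3 carriers had such a median. In bins with such medians 71.6% of all tested genes were called, and in the other bins 39.3%. Outside these neighbourhoods 12 of 34 tested carriers were called, 5 higher and 7 lower.

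SLC25A22 (chromosome 11, 790475 to 798281, GRCh38.p14) had a neighbourhood median of -0.24 over 79 genes, and its own log2 fold change was -0.46. SLC25A33 (chromosome 1, 9539465 to 9585173) fell by 0.48 on the log2 scale beside a median of -0.17 over 82 genes. SLC25A45 (chromosome 11, 65375192 to 65383701) lay among genes with a median of -0.27. SLC25A4 (chromosome 4, 185143266 to 185150382) was no lower than its neighbours, with its log2 fold change of -0.17 beside their -0.23 over 20 genes. SLC25A6 (chromosome X, 1386152 to 1392113, in the part shared with the Y chromosome) rose by 0.39 beside a median of 0.16 over 14 genes.

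SLC25A12 (chromosome 2, 171783405 to 171894244) was higher although its neighbours had a median of -0.07. Neighbourhood medians were also small for SLC25A1 (0.06), SLC25A39 (0.01), SLC25A44 (0.02), SLC25A42 (0.05), SLC25A29 (0.03) and SLC25A47 (0.03). The part of the regional shift in any carrier's change was not tested.

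**Figure D4:**
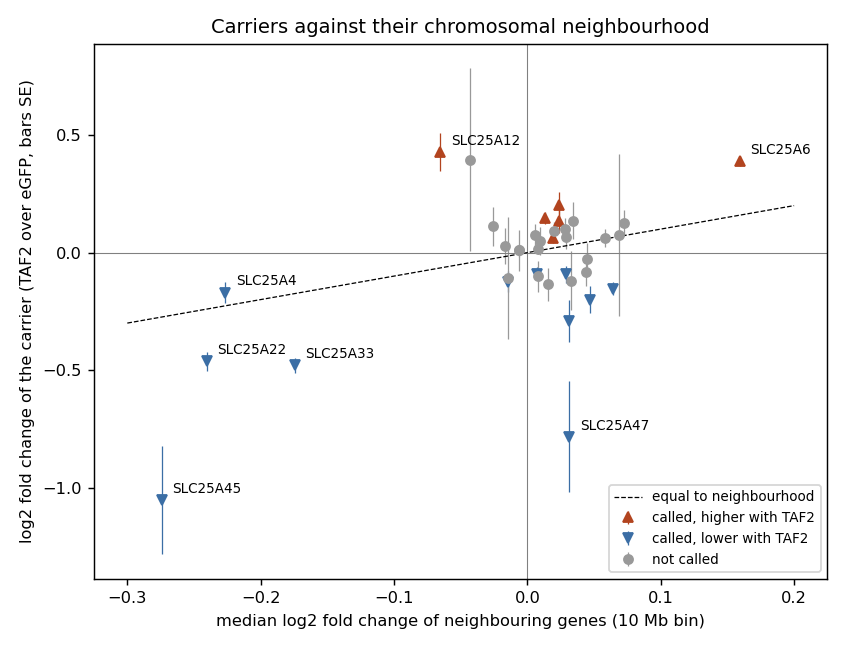
Each point is a tested carrier (1 is not shown), with its log2 fold change (TAF2 over eGFP, bars SE) on the vertical axis and the median log2 fold change of its neighbours on the horizontal axis, taken in a 10 Mb bin or, for SLC25A40, over chromosome 7. SLC25A4, SLC25A22, SLC25A33 and SLC25A45 lie at the most negative neighbourhood medians and SLC25A6 at the highest one. SLC25A45, SLC25A47, SLC25A12 and SLC25A27, the last not called, lie furthest from the dashed line of equality.

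Genes that work beside the carriers were read from the same fit. Of 80 partner genes 76 were tested, and 11 were higher and 20 lower with TAF2, 40.8% in all, close to the 43.0% of all tested genes (20.6% higher and 22.4% lower), and their median log2 fold change was -0.03. Counts in the single lists, of 3 to 15 tested genes each, are to be read against the same background. Among carriers of the same family that go by other symbols, UCP2 (log2 fold change -0.46) and MTCH2 (-0.43), both on chromosome 11, fell, and MTCH1 (0.05) was not called. UCP1 and UCP3 had too few counts to test.

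The machinery that imports carriers and inserts them into the inner membrane had 3 genes that fell and 2 that rose among 13. The small intermembrane-space chaperone genes TIMM10B (-0.53), TIMM10 (-0.39) and TIMM8B (-0.37), all on chromosome 11, fell. TOMM20 (0.15), a receptor of the outer membrane, and AGK (0.12), a part of the TIM22 insertion complex, rose; both were named after their values were seen. Of 15 other inner membrane transporter genes 5 fell, among them the sideroflexins SFXN3 (-0.48) and SFXN4 (-0.22) and MPC2 (-0.24), a subunit of the pyruvate carrier, and the other 10 were not called. The outer membrane channel genes VDAC1, VDAC2 and VDAC3 had log2 fold changes between -0.01 and 0.04 and were not called (edgeR adjusted p = 0.196 to 0.733).

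Among enzymes that share the carriers' substrates, some genes rose and others fell. In the malate-aspartate and glycerol phosphate shuttles 2 of 6 tested genes rose and 2 fell, with GPD1 (-0.52) and MDH1 (-0.18) lower and GPD1L (0.24) higher. Of 5 tested genes of citrate export and use 1 fell, the isocitrate dehydrogenase IDH1 (-0.13). In the folate pathway 4 of 8 genes rose and 1 fell, with SHMT2 (0.15), MTHFD2 (0.09) and the folate polyglutamating enzyme FPGS (0.14) higher.

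Haem and iron-sulphur cluster genes fell in 4 and rose in 1 of 13, with UROS (-0.31), an enzyme of haem synthesis, lower and FECH (0.34), which inserts the iron to form haem, higher. Regulators of mitochondrial biogenesis rose in 2 and fell in 2 of 10. PPARGC1B (0.36) and PPRC1 (0.15), both coactivators, rose, and the nuclear receptor ESRRA (-0.29, on chromosome 11) fell.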

How the data were processed

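Total RNA of HepG2 cells was sequenced in 6 libraries made with an Illumina TruSeq kit, in 2 rounds, per the labels' protocols. The sample titles name no round, the fit held the group alone, and any effect of the rounds was not tested. Values are expected counts for each gene, deposited in 1 table without normalization. The submitters' processing notes name RSEM and hg38. Aligner, annotation release and strand setting: not given in the sources used here. Lacking the strand, a carrier's reads and those of a gene overlapping it cannot be told apart where their transcripts cover the same bases. Overlaps were taken from whole gene spans, and such bases were not looked for. RSEM divides reads that fit several genes; of the 282 deposited values of carriers 1 was not whole, in SLC25A15 (tolerance 0.001).

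Columns were matched to libraries by name (0 columns of per-sample values unused). Expected counts were rounded, filtered by filterByExpr, scaled by TMM and compared by edgeR 4.0.16 (R 4.3.3; glmQLFit robust, glmQLFTest) with the group alone, tested on simulated data, with Benjamini-Hochberg adjustment across the 12902 genes tested and a threshold of 0.05. DESeq2 1.42.0 was an alternative, with other scalings, filters, fits and libraries left out. Paralog shares were compared by exact permutation over libraries. Transcript lengths came from GENCODE release 29 through RefSeq accessions, positions from the RefSeq gene table of GRCh38.p14. No library was a copy of another: chi-square divided by its degrees of freedom, which is near 1 for counting error, was 25.9 to 29.4 between groups and 1.96 to 5.69 within them.

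Values in every library are given for TAF2, for up to 8 largest rises and 8 largest falls among called carriers of at least 1 CPM, for the 4 highest carriers and for paralog groups whose shares did not overlap; partner lists name up to 3 called genes with the smallest p. A few genes, 1 tested carrier among them, enter the counts and are not reported here by name. The carriers, lists and tests were chosen with earlier results of these data known.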

Additional observations from a re-analysis of the deposited data

How the results depend on the processing

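Apart from the test against 1.5-fold, 14 alternatives left 14 to 18 carriers called (17 in the reported fit), with 4 to 9 higher and 9 to 11 lower, and no called carrier changed direction. Of the 17, 11 stayed called under every one of these 14: SLC25A1, SLC25A4, SLC25A6, SLC25A10, SLC25A12, SLC25A22, SLC25A33, SLC25A39, SLC25A42, SLC25A44 and SLC25A45. SLC25A3, SLC25A11, SLC25A15, SLC25A29, SLC25A46 and SLC25A47 lost the call under at least 1. The adjusted p over the 14 ran from 0.00441 to 0.126 for SLC25A3, from 0.0184 to 0.124 for SLC25A11, from 0.0262 to 0.188 for SLC25A15, from 0.00351 to 0.0933 for SLC25A29, from 0.00383 to 0.259 for SLC25A46 and from 0.00498 to 0.0651 for SLC25A47. SLC25A23 was called with DESeq2 size factors, upper-quartile scaling, no filter, and without eGFP replicate 2 or TAF2 replicate 1; SLC25A24 with upper-quartile scaling and without eGFP replicate 1 or TAF2 replicate 1; SLC25A40 without eGFP replicate 2. The test against 1.5-fold called 373 genes in all, 153 higher and 220 lower, and 0 carriers, 0 higher and 0 lower; it asks for a larger change by construction. The carriers' median log2 fold change stayed between 0.00 and 0.02. With whole chromosomes as neighbourhoods 3 carriers, not 5, had a median at least 0.15 from 0. Per coding length the share of SLC25A13 differed by -3.45 percentage points, against -2.21 by counts, and that of SLC25A24 ran from 0.591 to 1.76 points over the alternatives. Replicate numbers share only a label: deviations of same-numbered libraries correlated at -0.0446, -0.0905 and -0.103. With the replicate number as a block 15 carriers were called, 5 higher and 10 lower, and 5250 genes in all; SLC25A3 (adjusted p = 0.0606) and SLC25A15 (0.059) lost the call. Low counts limit SLC25A45 and SLC25A47, with 22 to 28 and 25 to 26 counts in TAF2 libraries, and SLC25A21 and SLC25A27, with at most 21 in any.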
